A study of Homo sapiens with 12 samples.

Results

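The comparison described here is that of Caco-2 cells transfected with ZNF658 siRNA 2, the Dharmacon pool of siRNAs against the zinc finger gene ZNF658, with cells given control siRNA 2, the nontargeting siGENOME siRNA of the same supplier. Its members were taken from the sample labels and are 6 of the 12 arrays of the series, 3 replicates in each group. Caco-2, as the labels name the cells, is an established human colon adenocarcinoma line, although placental marker genes were detected on all 6 arrays, as described with the markers of cell identity. All cells, controls included, were grown in medium with fetal calf serum and were transfected with Lipofectamine RNAiMAX, and no zinc treatment is named for these arrays. The remaining 6 arrays hold ZNF658 siRNA 1 and control siRNA 1, from Ambion, and served here to set the spread between arrays and for 1 side-by-side comparison. Total RNA was hybridized to Illumina HT12 bead chips, and the labels do not say whether the replicates came from separate cultures, so that the P values measure only the spread between these arrays.

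Zinc finger proteins of the ZNF658 kind bind DNA through small folds that each hold a zinc ion. In human cells zinc is moved by transporters of the SLC30 (ZnT) family, which carry it out of the cytosol, and of the SLC39 (ZIP) family, which carry it in, while metallothioneins bind it in the cytosol and are induced through the factor MTF1. Some zinc transporter genes are repressed by zinc through a promoter element called the ZTRE (zinc transcriptional regulatory element). Ribosomes are assembled in the nucleolus from rRNA and ribosomal proteins, with the help of many biogenesis factors. The comparison asks which transcripts differ when ZNF658 is targeted, and whether transcripts of zinc handling and of the ribosome are among them.

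Between 14528 and 15743 probes were detected on each of the 6 arrays (detection P value under 0.01). A total of 14804 probes were tested, of which 11868 carry 1 gene name, for 9203 genes. No probe here is named ZNF658, so the extent of knockdown was not read from the arrays. Values are normalized intensities on a log2 scale. A change is the mean of the ZNF658 siRNA 2 arrays minus the mean of the control siRNA 2 arrays on that scale, and a probe was called at an adjusted P value under 0.05 (limma, Benjamini-Hochberg) and a change of at least 1.2-fold.

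Each group held 1 array whose nearest array belonged to the other group. Replicate 3 of ZNF658 siRNA 2 had a Pearson r across probes of 0.989, 0.987 and 0.944 with replicates 1, 2 and 3 of control siRNA 2, and of 0.983 and 0.971 with the replicates of its own group. Replicate 3 of control siRNA 2 had r of 0.960, 0.973 and 0.944 with replicates 1, 2 and 3 of ZNF658 siRNA 2, against 0.945 and 0.948 with its own group. Its array quality weight, a measure of how well an array fits its group mean in which a typical array has 1, was 0.156, the lowest of the 12. The weights do not single out replicate 3 of ZNF658 siRNA 2, which had 0.626, above the 0.512 of replicate 2 of that group. Replicate 3 of ZNF658 siRNA 2 was also the brightest before normalization, with a 95th percentile of intensity of 2385 against 1275 to 1767 on the other 5. For this reason the main results are given with all arrays and then without these 2. The choice of arrays to leave out was made from these values, so the calls made without them are descriptive. Groups follow the labels throughout, and an exchange of these 2 samples or of their labels was not tested. Were they exchanged, the changes over all 6 arrays would mix the 2 treatments.

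With all 6 arrays, 0 of 14804 probes were called (0%). At an unadjusted P value under 0.05 there were 487 probes with a higher mean after ZNF658 siRNA 2 (3.29% of those tested) and 350 with a lower mean (2.36%). The 3 arrays of ZNF658 siRNA 2 lay entirely above the 3 control arrays at 738 probes (4.99%) and entirely below them at 664 (4.49%). No further statement below is therefore a call unless it is said to be one, and the word "separate" is used for a probe whose 2 groups do not overlap.

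The probe for 18S rRNA (RNA18SN5), the RNA of the small ribosomal subunit, had the largest mean change among the named rRNA probes. It read 13.99, 14.55 and 9.88 on the arrays of ZNF658 siRNA 2 and 10.22, 10.06 and 11.56 on those of control siRNA 2. Replicates 1 and 2 of the siRNA group were the 2 brightest arrays and replicate 3 was the dimmest of all 6, so the groups overlapped. The change was 2.20 (standard error 1.07, adjusted P = 0.89, limma). The rank product test, which does not weigh the spread of a probe between arrays, called this probe higher with all 6 arrays. Without both replicates 3, a choice made from these data, the change was 4.14 (adjusted P = 0.031, limma), a descriptive call. With only the siRNA replicate 3 left out it was 3.66 (adjusted P = 0.37). With only that of the control left out it was 2.67 (adjusted P = 0.35).

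28S rRNA (RNA28SN5), of the large subunit, has 2 probes. The brighter read 10.67, 10.72 and 6.66 against 8.37, 7.93 and 11.29, a change of 0.15 (standard error 1.07). The dimmer read 8.57, 8.75 and 6.42 against 7.26, 7.04 and 7.85, a change of 0.53 (standard error 0.52). On both probes replicate 3 of the siRNA group was the dimmest array, as for 18S rRNA, and on the brighter probe replicate 3 of the control was the brightest. Without both replicates 3 the changes were 2.54 (adjusted P = 0.064, limma) and 1.51 (adjusted P = 0.052), and neither was called. 5S rRNA (RNA5S9), which is transcribed by RNA polymerase III from genes of its own, read 8.45, 8.41 and 8.45 against 8.55, 8.36 and 7.86, and none of its arrays stood apart as those of 18S did. The genome holds many copies of the rRNA genes, which these probes do not tell apart. The labeling kit primes on poly(A) tails, which mature rRNA lacks.

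**Figure D1:**
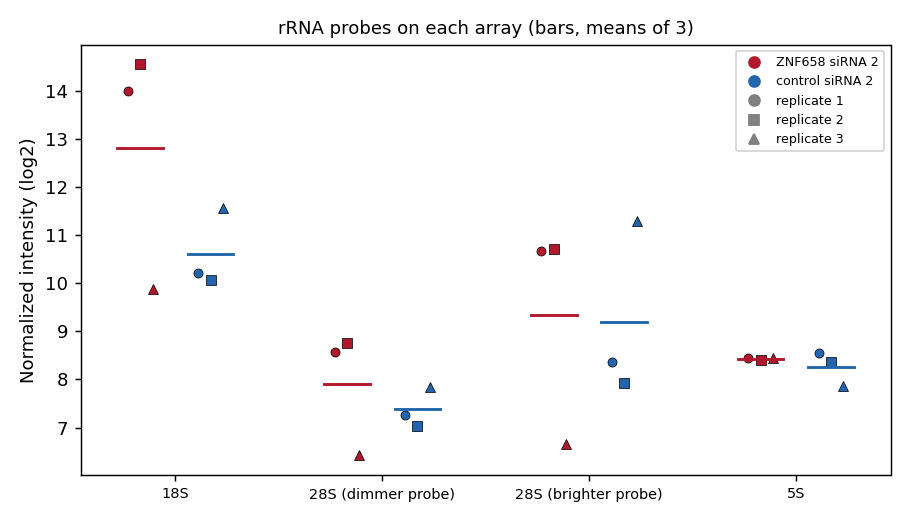
Normalized intensity (log2, y axis) of the 4 rRNA probes (x axis) on each of the 3 arrays of ZNF658 siRNA 2 (red) and control siRNA 2 (blue), with the marker giving the replicate and the bar the mean. For 18S rRNA the red replicates 1 and 2 lie at 13.99 and 14.55 and the red replicate 3 at 9.88, below all control arrays.

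Transcripts of the ribosome itself showed small changes. Of 26 measured ribosomal protein genes of the small subunit, 19 had a lower mean and 7 a higher mean, with a median change of −0.10. Over all tested probes 49.9% were below and 50.1% above the control, with a median of 0.00029. Of 42 genes of the large subunit, 24 were below and 18 above the control, with a median of −0.02. None was called. RPS26, a protein of the small subunit, read 11.60, 11.84 and 11.88 against 12.05, 12.40 and 12.51, a change of −0.55 (standard error 0.20, unadjusted P = 0.015, adjusted P = 0.84, limma). RPS21 read 12.22, 12.47 and 12.40 against 12.59, 12.65 and 12.92, a change of −0.36 (standard error 0.17). Every array of the siRNA group was below every control array for both. Of the small-subunit genes 6 were separate in this direction (RPS26, RPS21, RPS12, RPS24, RPS3 and RPS9) and none in the other, but the changes of the last 4 were between −0.08 and −0.17. Over all tested probes, 4.49% were separate and lower. Ribosomal protein genes have many processed pseudogenes of near-identical sequence, so a probe may read more than 1 of them.

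Of 60 measured ribosome biogenesis factors, 39 had a lower mean and 21 a higher one (median −0.07). Of these factors 7 were separate, all of them lower, beside 4.49% of all tested probes that were separate and lower. RRP1B, a nucleolar protein that takes part in rRNA processing, read 6.83, 7.39 and 7.00 against 7.53, 7.69 and 8.20, a change of −0.73 (standard error 0.25, unadjusted P = 0.011, limma). NCL, which encodes nucleolin, an abundant protein of the nucleolus, read 11.86, 11.78 and 11.62 against 11.89, 12.21 and 12.41, a change of −0.42 (standard error 0.17). For RRP1B and NCL replicate 3 of the control was the highest of the 6 arrays. The others were NOP14 (−0.44) and RRP12 (−0.41), of the small-subunit processome and its maturation, TSR1 (−0.35), RRS1 (−0.33) and NHP2 (−0.29), a protein of the box H/ACA particles that guide pseudouridylation. Without both replicates 3 the changes of these 7 were between −0.50 and −0.08, none of them called, and 41 of the 60 genes had a lower mean (median −0.14). A second, dimmer probe for NOP14 had a change of −0.02. Of 17 genes for RNA polymerase I and its factors, 11 were below the control and 6 above (median −0.08), and POLR2L, a subunit that the RNA polymerases share, was the one that was separate (−0.41).

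Among zinc transporters, 15 genes were measured. Their means were above the control for 9 and below it for 6 (median 0.03), and none was called. SLC39A6 (ZIP6), an importer, read 7.80, 7.48 and 7.13 against 7.08, 6.98 and 6.56, a change of 0.59 (standard error 0.23, unadjusted P = 0.019, adjusted P = 0.84, limma). All arrays of the siRNA group were above all control arrays, although the lowest of the former and the highest of the latter differed by little. A second, dimmer probe for SLC39A6 had a change of 0.06. SLC39A10 (0.23), another importer, and SLC30A1 (0.17), the zinc exporter of the plasma membrane, were separate in the same direction. Over all tested probes, 4.99% were separate and higher.

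SLC30A5, which encodes the zinc transporter ZnT5, has the ZTRE in its promoter and was read by 3 probes. The brightest read 9.14, 9.16 and 9.30 against 9.16, 9.29 and 8.62, a change of 0.18 (standard error 0.18, adjusted P = 0.97, limma). The other 2 had changes of −0.13 (standard error 0.16) and 0.11 (standard error 0.32). The 2 groups overlapped on all 3 probes. The zinc chaperone genes known as CBWD or ZNG1 had changes of 0.17 for ZNG1E, 0.02 for ZNG1A and −0.16 for ZNG1C, and these gene copies are so alike that a probe may read several of them. No tested probe is named SLC30A10.

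The promoter of SLC30A5 is shown because the element by which zinc represses the gene can be read in it. It covers 250 bases before to 50 after the annotated start (RefSeq, GRCh38.p14, chr5:69093764-69094063, plus strand), and capitals mark the ZTRE, an inverted repeat that a search for the ZTRE consensus found on both strands at the same place.
SLC30A5: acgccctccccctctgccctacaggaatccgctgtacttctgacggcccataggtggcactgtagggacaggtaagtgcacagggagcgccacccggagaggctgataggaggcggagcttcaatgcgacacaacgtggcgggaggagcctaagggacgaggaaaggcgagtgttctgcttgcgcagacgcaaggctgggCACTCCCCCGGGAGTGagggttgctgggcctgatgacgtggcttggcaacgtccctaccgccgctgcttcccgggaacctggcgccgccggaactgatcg
Of 35116 promoters of this length, a set that does not cover every chromosome, 22.2% held a match to the same consensus, with up to 50 bases between its arms. A match is therefore common and describes only the letters.

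Of the metallothioneins, MT1X, MT2A, MT1F and MT1E had lower means with ZNF658 siRNA 2, and MT4 was not detected on its arrays. MT1X read 6.58, 7.07 and 6.84 with ZNF658 siRNA 2 against 7.65, 8.01 and 7.57 with its control. The groups did not overlap, and no array stood apart from its group. The change was −0.91 (standard error 0.30, unadjusted P = 0.0078, adjusted P = 0.82, limma), and without both replicates 3 the transcript was 2.01-fold lower (adjusted P = 0.12). MT2A read 10.16, 10.56 and 10.13 against 10.60, 10.62 and 10.94, a change of −0.43 (standard error 0.21). For MT2A the groups were separate by a narrow margin. MT1F had a change of −0.30 and MT1E one of −0.23, both with overlapping groups. Of the 8 measured genes of the list of metallothioneins, MTF1-related and ZNG1 genes, 5 were below and 3 above the control, with a median of −0.17.

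The promoters of MT1X (chr16:56682220-56682519, plus strand) and MT2A (chr16:56608334-56608633, plus strand) are shown, from RefSeq on GRCh38.p14, since these are the 2 metallothioneins that were separate. Capitals mark the core of the metal response element bound by MTF1, searched on both strands as TGCACNC or TGCGCNC. It occurs 4 times in the first and 8 times in the second, and 29.6% of the same set of 35116 promoters hold it at least once. No match of the ZTRE consensus was found in either window.
MT1X: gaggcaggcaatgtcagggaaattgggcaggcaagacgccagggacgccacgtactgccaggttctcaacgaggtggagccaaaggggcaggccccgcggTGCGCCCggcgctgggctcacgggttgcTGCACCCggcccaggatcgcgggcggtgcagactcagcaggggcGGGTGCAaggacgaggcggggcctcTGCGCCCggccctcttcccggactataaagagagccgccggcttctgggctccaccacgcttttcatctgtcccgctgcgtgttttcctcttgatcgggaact
MT2A: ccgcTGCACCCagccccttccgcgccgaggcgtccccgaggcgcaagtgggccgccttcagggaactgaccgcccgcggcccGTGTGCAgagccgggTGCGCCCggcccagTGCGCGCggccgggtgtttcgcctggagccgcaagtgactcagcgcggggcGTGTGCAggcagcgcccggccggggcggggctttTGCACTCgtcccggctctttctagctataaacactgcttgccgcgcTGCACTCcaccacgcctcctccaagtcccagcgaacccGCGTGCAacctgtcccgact

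Among all tested probes, with or without a gene name, 338 were separate and higher by 1.2-fold or more, with an unadjusted P value under 0.05 (2.28%), and 269 were so in the lower direction (1.82%). Of those with a name, the 15 genes with the largest changes in each direction were inspected gene by gene. TAGLN, which encodes transgelin, an actin-binding protein of contractile cells, had the smallest P value of these. It read 11.87, 11.67 and 11.37 with ZNF658 siRNA 2 against 10.57, 10.97 and 9.92 with control siRNA 2, so that all 3 arrays of the former were above all 3 of the latter. The change was 1.15 (standard error 0.22), or 2.22-fold, with an unadjusted P value of 8.5e-05 and an adjusted P value of 0.82 (limma). Its second probe read 9.00, 9.51 and 8.41 against 7.21, 7.81 and 8.60, a change of 1.10, with 1 control array above the lowest of the siRNA group. Without both replicates 3, both TAGLN probes were called higher (1.00, adjusted P = 0.022, and 1.75, adjusted P = 0.010).

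MBNL3, a muscleblind-like regulator of alternative splicing, read 11.18, 11.15 and 9.55 against 9.37, 9.07 and 9.29, a change of 1.38 (standard error 0.41). A second probe for it read 10.23, 10.07 and 8.78 against 8.45, 8.55 and 8.03, a change of 1.35. In both, replicates 1 and 2 of the siRNA group stood well above the other 4 arrays, and replicate 3 was close to the controls. The brightest MBNL3 probe, however, read 11.31, 10.88 and 11.30 against 11.49, 11.50 and 10.61, a change of −0.03, so the probes of this gene disagreed.

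LBR, the lamin B receptor of the inner nuclear membrane, was separate on both of its probes. The dimmer read 8.15, 7.91 and 7.70 against 7.21, 7.12 and 5.50, a change of 1.31 (standard error 0.35). The brighter read 9.40, 9.42 and 9.63 against 9.16, 8.77 and 7.88, a change of 0.88. Replicate 3 of the control was the lowest array on both, and it is the one that widens the gap. On the dimmer probe it read under the detection level of that array (5.70). Without both replicates 3 the change on the dimmer probe was 0.87 (adjusted P = 0.058, limma).

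CALD1, caldesmon, another actin-binding protein, was separate on 2 of 3 probes, with changes of 1.05 and 0.82, and had a change of 0.21 on the brightest. TAF13, a subunit of the general transcription factor TFIID, was separate on both of its probes. On one of them it was detected on all 3 arrays of the siRNA group and on none of the control, which makes it at least 1.52-fold higher, with an adjusted P value of 0.82 (limma).

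For several genes the other probes did not show the change of the separate probe. EZH2, the methyltransferase of Polycomb repressive complex 2, read 8.09, 8.27 and 7.60 against 7.10, 7.39 and 5.94 on 1 probe (change 1.18, standard error 0.34), but its other 2 probes had changes of −0.12 and −0.24. SLC38A1, a glutamine transporter, had a change of 1.38 on 1 probe, where replicate 3 of the control read 4.94 and the other 2 control arrays 7.50 and 7.57, and one of −0.01 on its brighter probe. MRE11, a nuclease of double-strand break repair, had a change of 1.32 on the probe where that same array read 4.98, and changes of 0.14 and −0.20 on its other probes. CSNK2A1, the catalytic subunit of casein kinase 2, and STK31 had changes of 1.18 and 1.12 on 1 probe each and between −0.23 and 0.15 on the others. On the separate probes of SLC38A1, MRE11, CSNK2A1 and STK31, replicate 3 of the control read under its detection level (5.70). The size of these changes is therefore uncertain.

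Of the 15 genes with the largest positive changes, 12 had another tested probe, and for 4 of them (MBNL3, LBR, TAF13 and CALD1) another probe was separate in the same direction. The median change of these 19 other probes was 0.15. On 13 of the 15 probes, replicate 3 of the control was the lowest of the 6 arrays, and ARID4B and MBNL3 were the exceptions. Leaving out both replicates 3, 6 of the 15 were called higher. Picking the probe with the largest change for each gene favors such disagreement.

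**Figure D2:**
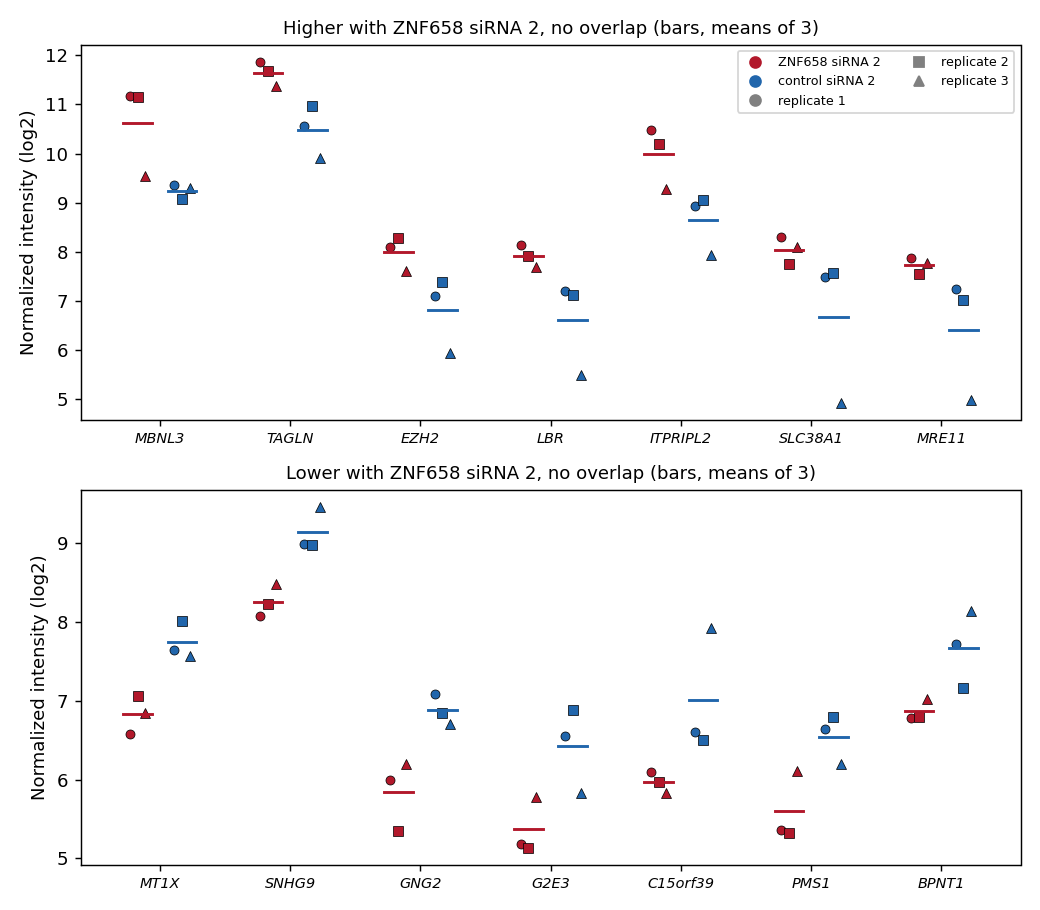
Normalized intensity (log2, y axis) of 7 genes that were higher (upper panel) and 7 that were lower (lower panel) with ZNF658 siRNA 2 without overlap, by array (red, ZNF658 siRNA 2; blue, control siRNA 2; marker, replicate; bar, mean of 3). Replicate 3 of the control is the lowest point for TAGLN, EZH2, LBR, ITPRIPL2, SLC38A1 and MRE11, at 4.94 for SLC38A1, while the 3 replicates of each group lie close together for MT1X and SNHG9.

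Of the probes that were lower, SNHG9, a host gene of a small nucleolar RNA, read 8.08, 8.22 and 8.48 against 8.99, 8.98 and 9.46, a change of −0.88 (standard error 0.24, unadjusted P = 0.0021, adjusted P = 0.82, limma). GNG2, a gamma subunit of heterotrimeric G proteins, read 5.99, 5.35 and 6.20 against 7.09, 6.84 and 6.71, a change of −1.03 (standard error 0.24). BPNT1, a bisphosphate nucleotidase, read 6.78, 6.79 and 7.02 against 7.72, 7.16 and 8.13, a change of −0.80. In these 3 genes both replicates 3 lay on the side of their own group. GNG2 was called lower without both replicates 3 (−1.29, adjusted P = 0.035, limma), and SNHG9 was not (−0.83, adjusted P = 0.080). The GNG2 probe was detected on 2 of the 3 arrays of ZNF658 siRNA 2.

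G2E3, a ubiquitin ligase, read 5.19, 5.13 and 5.78 against 6.55, 6.88 and 5.83, a change of −1.05, and PMS1, a mismatch repair protein, read 5.36, 5.33 and 6.11 against 6.64, 6.79 and 6.19, a change of −0.94. In both, the 2 replicates 3 lay next to each other between the remaining arrays, and both were called lower without them (−1.55 and −1.37, adjusted P = 0.031 and 0.036, limma). Both genes were detected on only 1 array of ZNF658 siRNA 2. Its replicates 1 and 2 read under the detection levels of those arrays (5.93 and 5.83), so the size of these changes is uncertain. C15orf39 read 6.10, 5.97 and 5.83 against 6.60, 6.50 and 7.92, where replicate 3 of the control carried much of the change of −1.04. IDO2, a tryptophan-degrading enzyme, was detected on none of the siRNA arrays and on all control arrays, and was at least 1.11-fold lower. The same held for MOK (at least 1.22-fold), FBXO10 (at least 1.26-fold) and the dimmer probe of CWC22 (at least 1.05-fold), all with adjusted P values between 0.82 and 0.84 (limma). The brighter CWC22 probe was detected on all 3 arrays of each group and had a change of −0.13. Of the 15 genes with the largest negative changes, 4 had another tested probe, none of them separate, and 3 were called lower without both replicates 3.

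Gene groups beyond the ribosome and zinc were described by the brightest probe of each gene. Of 26 measured genes of the actin cytoskeleton and of targets of the coactivator YAP, 22 had a higher mean and 4 a lower one, with a median of 0.17. TPM1, tropomyosin 1, read 12.07, 12.16 and 12.07 against 11.68, 11.73 and 11.78, a change of 0.37 (standard error 0.12, unadjusted P = 0.0062, adjusted P = 0.82, limma), and a second bright probe for it had a change of 0.07. TAGLN and TPM1 were the 2 members that were separate, both higher, beside 4.99% of all tested probes that were separate and higher. ACTN4, an actin crosslinker, read 9.58, 10.32 and 9.20 against 8.81, 8.86 and 10.81, and ACTB, beta-actin, read 14.18, 14.20 and 13.81 against 13.46, 13.62 and 14.60. In both, replicate 3 of the control was the highest array, and both were called higher without the replicates 3 (1.12, adjusted P = 0.031, and 0.65, adjusted P = 0.036). Without those arrays 20 genes were above and 6 below the control, with a median of 0.38, beside −0.02 over all tested probes. Glycolytic and hypoxia-responsive genes had a higher mean in 20 of 26 cases (median 0.13), among them LDHA, lactate dehydrogenase A (0.28), which was separate on its brightest probe and had a change of −0.08 on its other. Genes of cholesterol synthesis and uptake had a higher mean in 14 of 18 (median 0.13). None of these genes was called with all arrays.

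PDIA4, a protein disulfide isomerase of the endoplasmic reticulum, read 7.49, 7.34 and 7.43 against 8.05, 7.88 and 8.40, a change of −0.69 (standard error 0.19, unadjusted P = 0.0023, adjusted P = 0.82, limma). The arrays of each group lay close together. The list of the unfolded protein and integrated stress responses, to which it belongs, had 16 members above and 10 below the control (median 0.03). Of 23 interferon-stimulated genes, 9 were above and 14 below (median −0.05), and of 17 p53 targets 10 were above and 7 below (median 0.10). PEG10, a paternally expressed imprinted gene, read 11.27, 10.97 and 11.52 against 11.63, 11.59 and 11.74, a change of −0.40 (standard error 0.18), and its second probe had a change of −0.39 with overlapping groups. PROM1, the surface protein CD133, read 10.23, 10.25 and 10.52 against 10.59, 10.97 and 10.82, a change of −0.46 (standard error 0.17).

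**Figure D3:**
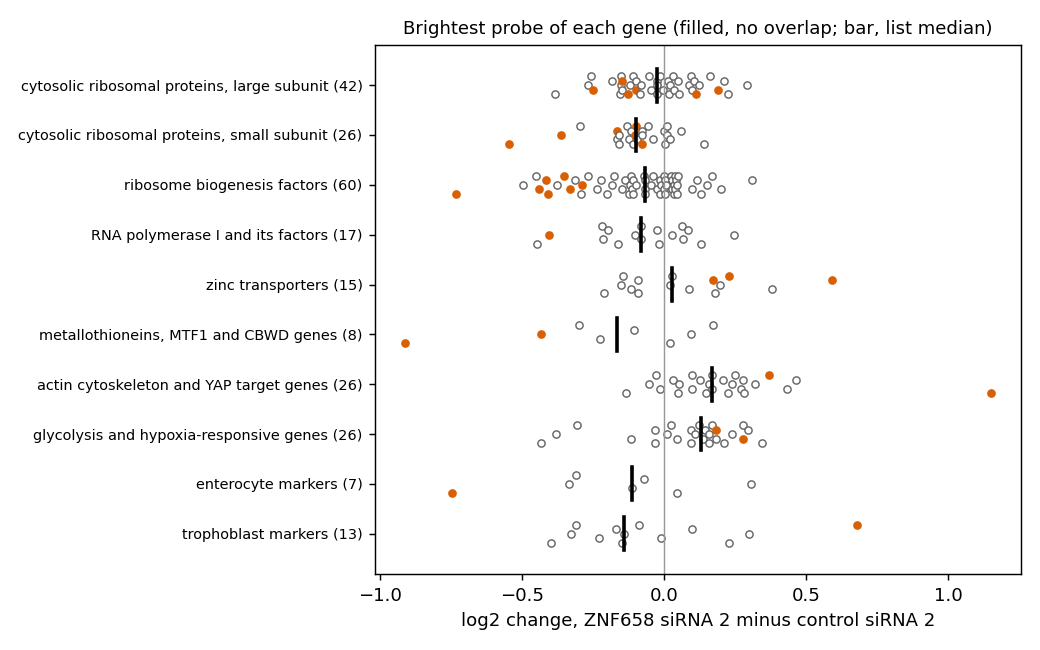
The change (log2, ZNF658 siRNA 2 minus control siRNA 2, x axis) of the brightest probe of each gene in 10 lists (y axis, number of genes measured in parentheses), with filled points for genes whose groups did not overlap and a bar at the list median. The filled points lie left of 0 for small-subunit ribosomal proteins and biogenesis factors and right of 0 for actin genes, of which TAGLN, at 1.15, is the farthest.

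Markers of cell identity were read in both groups. Of 15 enterocyte markers, 7 had a named and tested probe, with CDX1, an intestinal homeobox factor, between 11.10 and 11.58 and CDX2 between 9.38 and 10.90 on the 6 arrays, while the other 8 had none here. Of 14 trophoblast markers, 13 were measured and detected on all 3 siRNA arrays, with a mean level over the list of 9.19 to 9.28 with ZNF658 siRNA 2 and 9.05 to 9.55 with its control. They include CGA, the hormone alpha subunit, from 8.67 to 10.08, and GCM1, a placental transcription factor, from 8.54 to 9.18. All 13 were also detected on all 3 control arrays. Markers of placenta, such as CGA and GCM1, and of intestine, such as CDX1 and CDX2, were thus both read on these arrays. The 8 enterocyte markers without a named probe were not read, which does not make them absent. The identity of the cells was not tested. Of 10 fibroblast markers 3 were measured, and of 5 leukocyte markers only CD14. HSD3B1, a steroid dehydrogenase of placenta that belongs to the trophoblast list, read 9.61, 9.64 and 9.51 against 8.74, 9.21 and 8.77, a change of 0.68 (standard error 0.16, unadjusted P = 0.00077, adjusted P = 0.82, limma), with all siRNA arrays above all controls. Set against all 6 control arrays of both suppliers as 1 group, its change was 0.07. Over the trophoblast list 4 genes were above and 9 below the control (median −0.14), and of the 12 other than HSD3B1 none was separate. APOB, apolipoprotein B, of the enterocyte list, read 5.75, 5.07 and 5.99 against 6.54, 6.52 and 6.01, a change of −0.75 (standard error 0.28), with 1 control array at the level of the siRNA group. It was detected on only 1 of the siRNA arrays. In a culture, fewer cells that express a gene and less RNA of it per cell cannot be told apart.

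Without both replicates 3, 268 probes were called in the limma fit (1.81%), 177 higher (1.2%) and 91 lower (0.615%). With only one of them left out, 0 were called in either case, beside 966 probes at an unadjusted P value under 0.05 without that of the siRNA group and 1861 without that of the control. Of the 268 probes, 229 read on the control side of the midpoint between the groups in replicate 3 of ZNF658 siRNA 2, and 224 read on the siRNA side in replicate 3 of the control. Both arrays crossed at 190 probes, and neither crossed at 5. Replicate 3 of the siRNA group was above replicate 3 of the control at 21 of the 177 probes called higher (11.9%) and at 80 of the 91 called lower (87.9%), beside 55.3% of all tested probes. At most of these probes the 2 arrays numbered 3 thus differed in the opposite direction to the other 4. Those 2 arrays were set aside for lying nearest to the other group, and 0 probes were called with them. The counts therefore follow in part from that choice and are not a separate observation. The cause of the difference between these arrays and the others was not tested.

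Among these probes IGF2, insulin-like growth factor 2, had the 2 largest called changes among named probes other than rRNA. The brighter read 10.28, 10.71 and 7.98 against 7.72, 7.88 and 9.93, and the other read 9.80, 10.88 and 7.92 against 7.52, 7.26 and 10.45. In each, replicates 1 and 2 of the siRNA group and replicate 3 of the control were high, and the remaining 3 arrays were low. The changes were 2.70 and 2.95 without the replicates 3 (adjusted P = 0.010 for both, limma), and 1.15 and 1.12 with all arrays (adjusted P = 0.92 and 0.93). YWHAE, a 14-3-3 protein, had the same 3 arrays high, by a smaller margin, with 9.32, 10.39 and 8.32 against 8.26, 8.03 and 11.38. Across the alternatives that keep at least 1 array numbered 3, its change on this probe lay between −0.48 and 1.198.

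Other genes called higher without the replicates 3 are given by array. TPM4, tropomyosin 4, read 8.64, 9.40 and 7.20 against 6.74, 7.03 and 8.81 on the probe that was called (2.13, adjusted P = 0.036, limma), while its other probe changed by 1.16 (adjusted P = 0.050253) and was not called. TENM3, a teneurin adhesion protein of the plasma membrane, read 11.50, 11.35 and 10.07 against 9.95, 9.61 and 10.93, and was called at 1.65 (adjusted P = 0.025). EXPH5 was called at 2.23 (adjusted P = 0.022) and TGFBRAP1 at 2.38 (adjusted P = 0.031). For all 4, replicate 3 of the control was the highest of its group and replicate 3 of the siRNA group the lowest of its own.

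In the lower direction, DUSP6, a phosphatase that acts on the kinase ERK, read 6.61, 6.46 and 7.18 against 7.56, 7.84 and 7.00, and was called at −1.16 (adjusted P = 0.023, limma). TFF3, a trefoil peptide secreted by goblet cells of the intestine, read 6.46, 6.34 and 7.29 against 7.65, 7.70 and 6.46 (−1.27, adjusted P = 0.036). In both genes replicate 3 of the siRNA group was the highest of its group and replicate 3 of the control the lowest of its own. RAB40B (−1.36, adjusted P = 0.010) and the called probe of COMMD8 (−1.36, adjusted P = 0.043) had the same order, and a brighter probe of COMMD8 changed by −0.45 and was not called. With all arrays the changes were −0.71 for DUSP6 and −0.57 for TFF3, neither of them called. Of the 223 named probes that were called without the replicates 3, for 208 genes, 19 were separate over all 6 arrays (8.52%). Over all tested probes, 4.99% were separate and higher and 4.49% separate and lower, so these probes were not separate more often than others.

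At 44 of the 268 probes, 32 called higher and 12 called lower, replicate 3 of the control read on the control side of the midpoint. They include the 5 probes at which neither array crossed. The called MBNL3 probes belong here, as does the 18S rRNA probe, although on the latter that array read above the other control arrays. CNBP, a nucleic acid binding protein, read 7.17, 7.85 and 5.30 against 5.50, 5.00 and 5.28 on the called probe, while its brightest probe read between 11.34 and 11.88 on all 6 arrays with a change of 0.14. FBXW7, a ubiquitin ligase subunit, read 7.99, 8.26 and 5.47 against 6.06, 5.56 and 5.93 on the called probe and had a change of 0.20 on its other. On the called probes of MBNL3, CNBP and FBXW7 the signal was high in replicates 1 and 2 of ZNF658 siRNA 2 and in none of the other 4 arrays of the pair. It was also high in replicates 2 and 3 of control siRNA 1, so it was not limited to cells given ZNF658 siRNA 2. Those 2 control arrays read 10.88 and 11.32 on the first MBNL3 probe, and 7.76 and 7.65 for CNBP and 8.58 and 8.73 for FBXW7 on the called probes. They also read 9.91 and 9.82 on the dimmer IGF2 probe and 11.64 and 11.63 for TENM3.

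**Figure D4:**
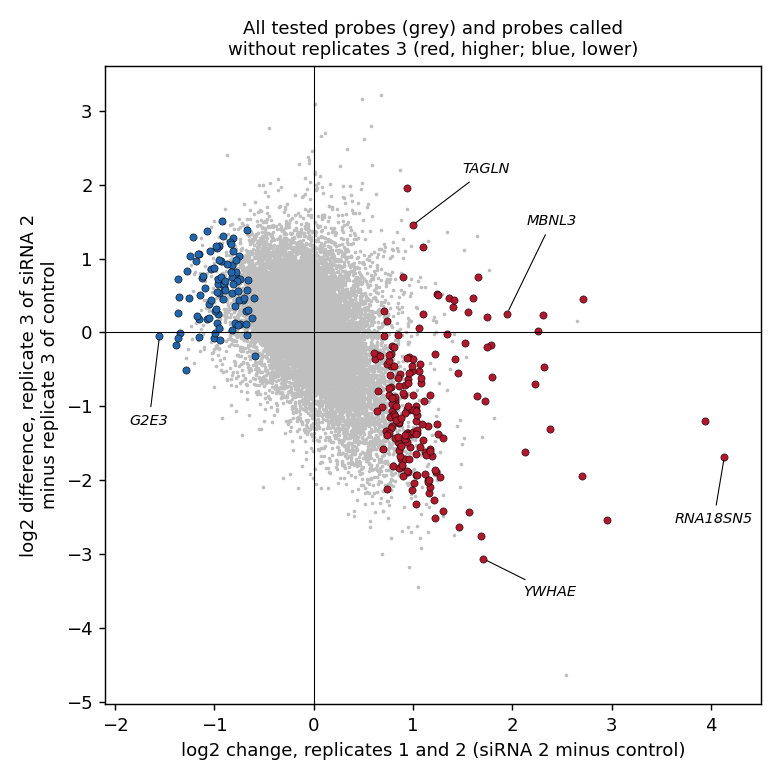
For each tested probe, the log2 change between replicates 1 and 2 of both groups (x axis) and the log2 difference between replicate 3 of ZNF658 siRNA 2 and replicate 3 of its control (y axis). Grey points are all 14804 probes, and the 177 red and 91 blue points are those called higher and lower without replicates 3. Most of these lie on opposite sides of 0 on the 2 axes. The labeled, brighter TAGLN probe is among the exceptions, and the other TAGLN probe is not.

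The same probes were compared with the Ambion pair, ZNF658 siRNA 1 against control siRNA 1, which shares no array with the Dharmacon pair. The difference between the 2 changes was called at 0 probes with all arrays, beside 1597 at an unadjusted P value under 0.05 (10.8%, limma). At 221 probes (1.49%) both pairs were separate and in opposite directions, and at 34 (0.23%) in the same direction. For 18S rRNA the change was −3.40 with siRNA 1, against 2.20 with siRNA 2. The probe read 9.58, 9.57 and 10.70 with siRNA 1 against 10.74, 14.55 and 14.74 with its control, so that replicates 2 and 3 of control siRNA 1 were as bright as replicates 1 and 2 of ZNF658 siRNA 2, and replicate 1 of control siRNA 1 lay with the siRNA 1 arrays. LBR had changes of −0.82 with siRNA 1 and 1.31 with siRNA 2 on its dimmer probe and of −0.33 and 0.88 on its brighter one. STK31 had changes of −1.07 and 1.12 on 1 probe, while its other 2 had changes of 0.08 and −0.23, and of −0.25 and −0.05. CALD1 had changes of −0.80 and 1.05 on its dimmest probe and of −0.30 and 0.82 on another, but its brightest was higher with both siRNAs (0.53, where the groups were separate, and 0.21). TAGLN had a change of −0.07 with siRNA 1 on its brighter probe and one of −0.39 on the other, which was separate. MT1X had a change of 0.06, and RPS26 had one of 0.67, against −0.55 with siRNA 2. Of the lists mostly higher with siRNA 2, the actin and YAP genes were 6 above and 20 below the control with siRNA 1 (median −0.13). Glycolytic and hypoxia-responsive genes were 7 above and 19 below (median −0.14), and cholesterol genes 8 above and 10 below (median −0.11). The median over all tested probes with siRNA 1 was −0.0088. Without both Dharmacon replicates 3 the difference was called at 1427 probes (9.64%), of which TAGLN (1.07, adjusted P = 0.010) and MBNL3 (3.09, adjusted P = 0.0035) are examples.

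**Figure D5:**
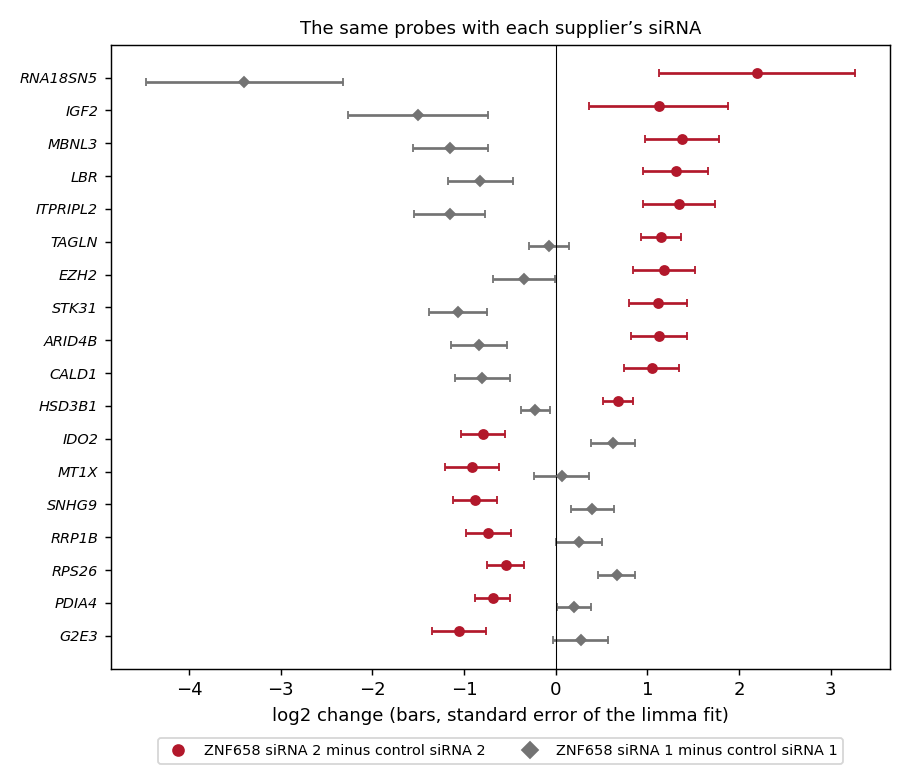
Changes (log2, x axis) of 18 genes (y axis) with ZNF658 siRNA 2 (red circles) and with ZNF658 siRNA 1 (grey diamonds), each against its own control, with bars for the standard error of the limma fit over all arrays and 1 probe a gene. The 2 siRNAs lie on opposite sides of 0 for 18S rRNA (2.20 and −3.40), and MT1X and the plotted probe of TAGLN lie near 0 with siRNA 1, where the other TAGLN probe had −0.39.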

How the data were processed

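RNA of 12 Caco-2 samples was hybridized to Illumina HT12 arrays. The authors exported scans with BeadStudio; the deposited table holds an intensity and a detection P value for 47231 probes per array, without normalization. A second table holds log2 values that the authors transformed and normalized before they deposited them, for 21105 probes. The version of lumi, named in the submitters' processing notes, is not given in the sources used here. The neqc function (limma 3.58.1, R 4.3.3, offset 16) corrected the background of the intensities and quantile normalized them. Probes detected (P under 0.01) on all 3 arrays of at least 1 of 4 groups were tested with lmFit and eBayes with a trend over all 12 arrays. For a gene with several probes, lists use the brightest. Named genes are rRNA probes, zinc genes, the 15 largest changes each way among separate probes at unadjusted P under 0.05, list members with large changes, and the largest calls without the arrays numbered 3. "At least" folds compare with the detection level. The members and the 24 lists were chosen with earlier results of these data known. The fit was tested on simulated data. The number of arrays limits the precision.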

Additional observations from a re-analysis of the deposited data

Results flagged for a closer look

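Among the probes chosen for naming by the rules above and the probes of some further genes, 7 had groups that did not overlap in either supplier's pair and that lay in opposite directions. The difference between the change with ZNF658 siRNA 2 and that with siRNA 1 was 1.96 for ARID4B, 1.85 for CALD1, −1.42 for IDO2, 1.35 for LARP1B, 2.13 for LBR, 2.19 for STK31 and 0.64 for TPM1 on the log2 scale. The difference was tested for each in the limma fit, and all 7 had an adjusted P value of 0.25, so none passed. The brightest CALD1 probe was higher with both siRNAs. Another CALD1 probe, outside the set counted here, was also separate in both pairs in opposite directions (0.82 with siRNA 2 and −0.30 with siRNA 1). Over all tested probes, 221 (1.49%) were separate in both pairs in opposite directions.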

How the results depend on the processing

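The count of calls, 0 with all arrays, was also 0 with quantile normalization alone, median scaling, the log2 table of the authors, tests of every probe or of those detected on all arrays, the 6 Dharmacon arrays alone, all 6 controls as 1 group, no trend and no fold minimum. Leaving out each Dharmacon array in turn gave 0 calls each time. Array quality weights gave 600 calls (253 higher and 347 lower), the rank product test 10, all higher, an unadjusted P value under 0.05 835, and leaving out both arrays numbered 3, chosen after seeing the data, 268. The 10 rank product calls, made with all 6 Dharmacon arrays, include the 18S rRNA probe and 1 CNBP probe. That test does not weigh the spread of a probe between arrays. Array weights reduce the share of replicate 3 of the control. For the difference between the siRNAs, 0 calls became 51 with median scaling, 2729 with array weights and 1427 without both arrays, and 0 to 26 with 1 array left out, the 26 without replicate 3 of ZNF658 siRNA 2. The change of 18S rRNA, 2.20, was 3.16 with array weights (adjusted P = 0.034) and 4.14 without both arrays (adjusted P = 0.031), and 1.32 to 3.66 with 1 array left out. With all 6 controls as 1 group it was 0.83.

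With the replicate block there were 0 calls and 18S rRNA kept 2.20 (adjusted P = 0.98). Replicate numbers did not pair the arrays, since the residuals of same-numbered arrays correlated at 0.0022, −0.38 and −0.59, and 0 of 6 arrays correlated best with its own number. Of 86 further named probes, 77 kept their direction in every alternative except the one without both arrays numbered 3, which is not counted here. Over the same alternatives the medians of the 24 lists gave 384 values, of which 340 had the direction of the reported median. The 3 arrays per group limit what can be detected.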
